A study of Mus musculus with 7 samples.

Results

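The Ras-ERK pathway genes described here are 39 genes that were chosen by name for their known place in the pathway, out of 46333 genes listed in each library. All 39 were found by symbol, and all passed the filter on low counts that left 21542 genes for testing. The lowest count of any of them in any library was 209 reads, so none sat near the limit of detection. By role, 21 are activators (Ras and Raf proteins, scaffolds, MEK, ERK, adaptors and exchange factors), 12 are inhibitors (GTPase-activating proteins, Sprouty and Spred proteins and dual-specificity phosphatases) and 6 are effectors downstream of ERK (ribosomal S6 kinases and ETS factors).

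Bulk mRNA was sequenced from isolates that had been enriched for neurons from whole brains of adult mice by magnetic removal of microglia, oligodendrocytes and astrocytes. The 3 cre+ libraries came from SynCre+ IL-4R fl/fl mice, in which the Syn promoter drives the Cre recombinase in neurons and the floxed il4ra alleles are recombined there, and the 4 cre- libraries came from SynCre- IL-4R fl/fl littermates. Both genotypes thus carried the floxed alleles, and no group carried Cre without them, so an effect of Cre itself cannot be told apart from the loss of the receptor. Libraries held 68213223 to 94376841 counts.

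Growth factor receptors on neurons pass their signal to Ras through adaptors of the Grb2, Shc and Gab families and through exchange factors of the Sos family, while Rasgrf and Rasgrp exchange factors couple Ras to calcium and diacylglycerol. Ras bound to GTP recruits Raf kinases, which phosphorylate MEK, and MEK phosphorylates ERK, which acts on ribosomal S6 kinases and on transcription factors such as Elk1. GTPase-activating proteins, Sprouty and Spred proteins and phosphatases of the Dusp family limit the signal at successive steps. In neurons this cascade is known for its part in synaptic plasticity and in activity-dependent transcription. Transcript levels were measured here, and neither protein levels nor phosphorylation.

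Il4ra, the gene targeted by Cre, was counted at 29.5, 28.7 and 24.4 CPM (counts relative to library size after TMM scaling) in cre+ and at 20.0, 23.2, 29.6 and 22.4 CPM in cre- libraries. The groups overlapped, and the log2 fold change was 0.21 ± 0.15 (SE, cre+ minus cre- as for all fold changes below, n = 3 and 4, edgeR adjusted p = 0.487). Recombination removes only part of this gene, so the count over the whole gene is no check of the genotype labels.

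Markers of cell types were examined before the members. All 13 neuronal markers, Rbfox3 and Slc17a7 among them, were detected in every library, and so were all 12 endothelial markers. The latter, Cldn5 and Pecam1 among them, summed to 12948 to 19064 CPM in cre+ and to 8151 to 11653 CPM in cre- libraries, without overlap, against 1227 to 2215 and 2118 to 3171 CPM for the neuronal markers. Cldn5 by itself overlapped, at 3848, 1636 and 1783 CPM in cre+ and at 1647 to 2113 CPM in cre- libraries. Of the endothelial markers 10, all but Cldn5 and Tie1, were called higher in cre+ by DESeq2, and of the neuronal markers 4 were called lower. Markers of mural cells (4 of 8, Tagln being at 0 in 4 libraries), fibroblasts (3 of 6), astrocytes (3 of 7) and oligodendrocytes (2 of 6) were also called higher, whereas 0 of 7 microglial markers were called. The cre+ replicate 1 had the lowest neuronal and the highest endothelial level of all libraries, and among cre- libraries replicate 4 had the lowest neuronal and the highest endothelial level. In such bulk samples fewer cells of a type and less RNA per cell cannot be told apart. The part of these markers in the differences below was not tested. A fit with a vascular covariate is given below, but it cannot separate vessel content from genotype.

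With edgeR, 0 of the 39 members were called at an adjusted p below 0.05, as were 0.0% of all 21542 genes tested, and limma-voom also called 0 members. At an unadjusted p below 0.05, edgeR counted 11 members (8 higher and 3 lower in cre+) beside 20.0% of all genes. DESeq2, the test used by the study, called 7 members beside 9.24% of all genes. Sos2, Shc1, Gab1, Spry4 and Dusp3 were called higher (5.08% of all genes were) and Shc2 and Spred3 were called lower (4.15% of all genes were). The members were more abundant than the genes at large, with a median level of 63.2 CPM beside 12.02 CPM, and the part of this in the share called was not tested. Levels of 8 members did not overlap between the genotypes, a share close to the 18.7% found over all genes. Of these, 6 were higher in cre+ (8.94% of all genes were) and 2 were lower (9.72% of all genes were). Of the 39 fold changes 20 were positive and 19 negative, with a median log2 fold change of 0.01 beside -0.04 over all genes, a nearly even split.

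**Figure D1:**
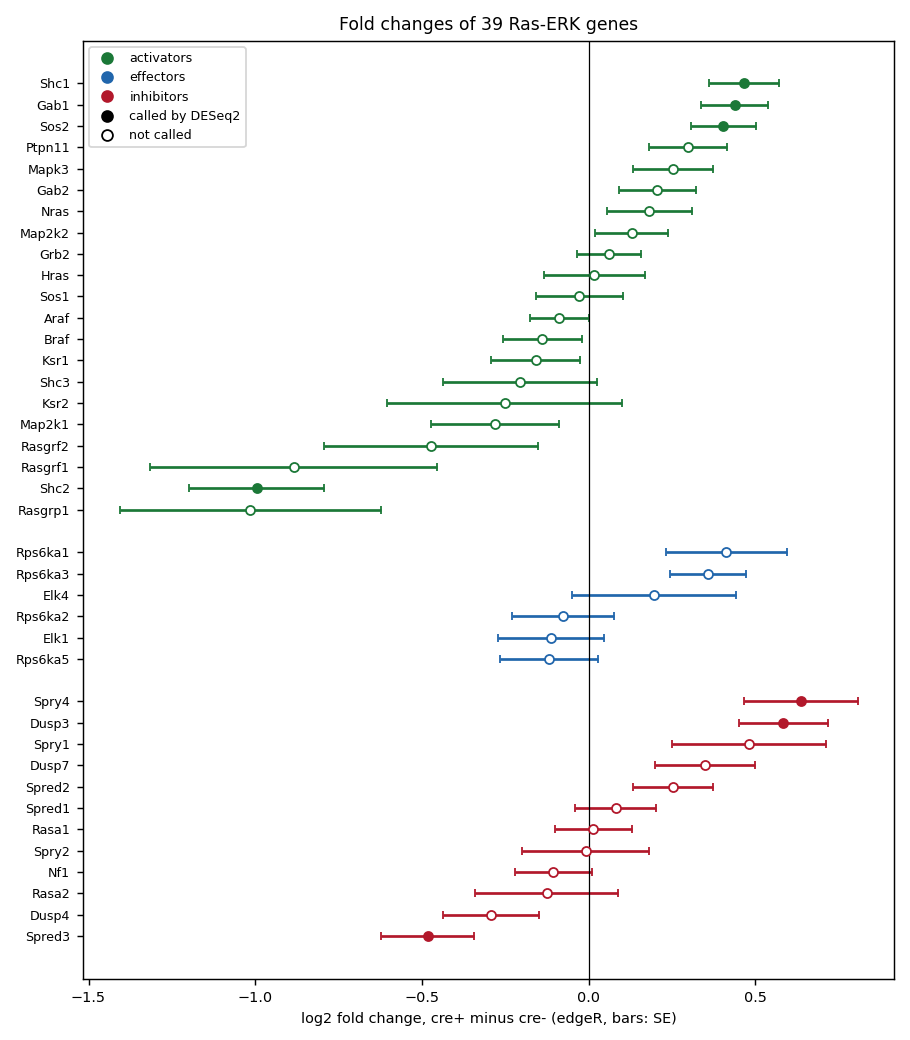
Log2 fold change (x axis, cre+ minus cre-, edgeR, bars are SE) of each of the 39 members (y axis), colored by class, with filled points for the 7 members called by DESeq2. Called members lay on both sides of 0, from -0.995 for Shc2 to 0.64 for Spry4. Rasgrf1, Rasgrp1 (-1.02) and Ksr2 had the widest bars among the lower members.

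Of the 4 activators called by DESeq2, 3 were adaptors. Of 7 adaptor genes, Shc1 and Gab1 were called higher by DESeq2, Shc2 was called lower, and Grb2, Shc3, Gab2 and Ptpn11 were not called. Shc1 encodes the widely expressed member of the Shc family, which links activated receptors to Grb2. Shc1 (chromosome 3, 89325750 to 89337334, plus strand, GRCm39) was measured at 68.7, 65.5 and 74.7 CPM in cre+ and at 46.4, 46.3, 52.7 and 56.3 CPM in cre- libraries. Every cre+ library was thus above every cre- library, with a log2 fold change of 0.47 ± 0.11 (adjusted p = 0.0963 with edgeR and 0.00518 with DESeq2). Shc2, a paralog of Shc1 that is known chiefly from neurons, moved the other way. Shc2 (chromosome 10, 79453885 to 79473752, minus strand, GRCm39) was measured at 15.5, 15.8 and 21.6 CPM in cre+ and at 36.8, 43.7, 35.0 and 25.3 CPM in cre- libraries. The groups did not overlap, the cre- replicate 4 being nearest to cre+, and the log2 fold change was -0.995 ± 0.20 (adjusted p = 0.0939 with edgeR and 0.000815 with DESeq2). Of the 39 members Shc2 had the smallest p by either tool.

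The ratio of Shc1 to Shc2 counts, which was chosen after their values had been seen and does not depend on the scaling between libraries, was 4.42, 4.13 and 3.46 in cre+ and 1.26, 1.06, 1.51 and 2.23 in cre- libraries. Since Shc1 was higher and Shc2 lower in every cre+ library, the ratio had to be higher there, and its lack of overlap adds nothing to their levels. Shc3, the other paralog known from neurons, was measured at 11.7 to 20.3 CPM in cre+ and at 14.3 to 23.7 CPM in cre- libraries, and neither its level nor its ratio to Shc1 separated the genotypes.

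Because these paralogs were called in opposite directions, the 250 bases before their start sites are shown, from the promoter table of RefSeq (GRCm38.p6, another build than that of the gene coordinates above, 5′ to 3′ on the strand of the gene, with the first of 2 listed starts for Shc1 and the only start for Shc2). Capitals mark the GC box GGGCGG, a binding site of Sp-family factors, and the CCAAT box, each on either strand (CCGCCC and ATTGG on the other), and no matches shared a base.
Shc1, chr3:89418301-89418550, plus strand: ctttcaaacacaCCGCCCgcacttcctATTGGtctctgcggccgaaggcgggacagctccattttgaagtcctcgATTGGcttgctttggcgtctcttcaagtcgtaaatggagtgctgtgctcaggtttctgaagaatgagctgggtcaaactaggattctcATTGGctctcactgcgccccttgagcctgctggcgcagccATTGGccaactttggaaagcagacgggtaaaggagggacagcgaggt
Shc2, chr10:79637919-79638168, minus strand: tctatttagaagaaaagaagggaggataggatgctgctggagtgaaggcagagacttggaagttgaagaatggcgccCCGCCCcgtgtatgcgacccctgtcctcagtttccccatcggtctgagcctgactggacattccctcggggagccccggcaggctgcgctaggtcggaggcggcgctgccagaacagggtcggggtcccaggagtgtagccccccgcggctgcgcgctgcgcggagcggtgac
Shc1 held 1 GC box and 4 CCAAT boxes, whereas Shc2 held 1 GC box and no CCAAT box in this window. GC content was 54.4% for Shc1 and 64.0% for Shc2, beside a median of 52.4% over all windows of this length, and the windows held 12 and 19 CpG, beside a median of 6. Neither window held the ETS motif CCGGAAGT or the cAMP response element TGACGTCA. Of all 32851 windows listed there, 32.7% held the GC box, 33.8% a CCAAT box, 2.88% the ETS motif and 1.546% the cAMP response element. Windows were listed for 33 of the 39 members, some with several starts, and of these 41 windows 29 held the GC box, 18 a CCAAT box, 2 the ETS motif and 2 the cAMP response element. These counts describe letters and not binding.

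Gab1 is a docking protein that gathers the phosphatase Shp2 and other partners at activated receptors. Gab1 was measured at 114, 108 and 108 CPM in cre+ and at 71.9, 85.3, 78.2 and 89.8 CPM in cre- libraries. The cre+ libraries lay closely together and above all cre- libraries, with a log2 fold change of 0.44 ± 0.10 (adjusted p = 0.0963 with edgeR and 0.00637 with DESeq2). Its paralog Gab2 had a mean of 31.7 ± 3.85 CPM over the 3 cre+ libraries (SD), against 27.5 ± 1.46 CPM over the 4 others, with overlap, and the ratio of Gab1 to Gab2 overlapped too, at 3.23 to 3.96 against 2.58 to 3.31. Ptpn11, which encodes Shp2, had a log2 fold change of 0.30 ± 0.12 (adjusted p = 0.208 with edgeR and 0.125 with DESeq2), and its cre- replicate 1 (196 CPM) was above the lowest cre+ library (193 CPM). Grb2, the adaptor on which Shc and Gab proteins converge, was measured at 137 ± 4.55 CPM (SD) in cre+ and 131 ± 10.9 CPM in cre-, a difference within the spread between libraries.

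Of 5 exchange factors, which load Ras with GTP, DESeq2 called only Sos2, and edgeR called none. Sos2, which is recruited to receptors by Grb2, was measured at 83.3, 72.4 and 77.6 CPM in cre+ and at 55.8, 60.5, 55.0 and 63.8 CPM in cre- libraries. The groups did not overlap, and the log2 fold change was 0.40 ± 0.10 (adjusted p = 0.0979 with edgeR and 0.00990 with DESeq2). Sos1, which shares this role, was at 73.8 ± 7.38 and 75.3 ± 10.3 CPM (SD). Per kb of merged exons, Sos2 and Sos1 were at 8.05 and 5.98 CPM in cre+ and at 6.08 and 6.09 CPM in cre-, but their ratio overlapped between genotypes (0.881 to 1.17 against 0.713 to 0.884). The calcium- and diacylglycerol-dependent factors had lower means in cre+ and varied widely. Rasgrp1, which binds diacylglycerol, was measured at 25.5, 53.0 and 66.6 CPM in cre+ and at 142, 105, 92.8 and 51.0 CPM in cre- libraries. The cre- replicate 4 fell among the cre+ libraries, and a log2 fold change of -1.02 ± 0.39 did not pass either test (adjusted p = 0.203 with edgeR and 0.0523 with DESeq2). Rasgrf1, a calcium-regulated factor of mature neurons, went from 19.2 to 73.8 CPM in cre+ and from 55.8 to 122 CPM in cre-, with a log2 fold change of -0.89 ± 0.43 (adjusted p = 0.295 with edgeR and 0.124 with DESeq2). Rasgrf2 had a log2 fold change of -0.47 ± 0.32 and was not called. These values rested on single libraries, being -0.50 for Rasgrf1 and -0.23 for Rasgrf2 without cre+ replicate 1, -0.21 for Rasgrf2 without cre- replicate 1, and -1.30 and -0.71 without cre+ replicate 3. For all 3 of these genes the lowest of the 7 libraries was cre+ replicate 1 and the highest was cre- replicate 1, which had the lowest and the highest mean level of the neuronal markers.

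**Figure D2:**
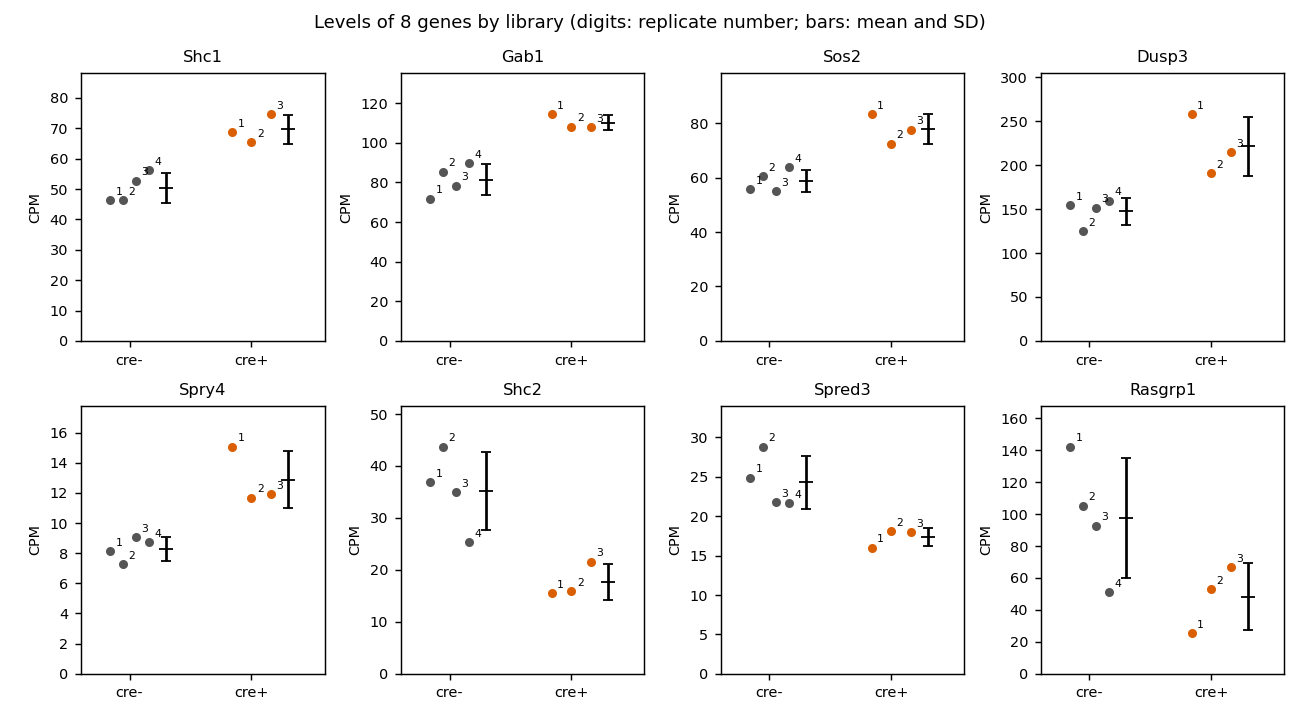
CPM (y axis, from 0) of the 7 members called by DESeq2 and of Rasgrp1 in each cre- (gray) and cre+ (orange) library, with the replicate number beside each point and the mean and SD as bars. The 7 called members show no overlap between genotypes, whereas cre- replicate 4 of Rasgrp1, at 51.0 CPM, lies among the cre+ libraries.

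The core of the cascade showed no member called by any of the tools. Mapk3, which encodes the kinase ERK1, was the most abundant member per kb of merged exons, at 82.3 CPM per kb averaged over all libraries. Mapk3 was measured at 257, 204 and 266 CPM in cre+ and at 203, 184, 209 and 216 CPM in cre- libraries. The cre+ replicate 2 fell among the cre- libraries, and the log2 fold change was 0.25 ± 0.12 (adjusted p = 0.281 with edgeR and 0.188 with DESeq2). At the other end, Ksr2, a scaffold that holds Raf, MEK and ERK together, had 0.282 CPM per kb. Ksr2 was measured at 2.36, 5.15 and 4.21 CPM in cre+ and at 5.71, 5.97, 3.07 and 3.86 CPM in cre- libraries, with overlap and a log2 fold change of -0.25 ± 0.35 (edgeR adjusted p = 0.747). The MEK genes Map2k1 and Map2k2 had log2 fold changes of -0.28 ± 0.19 and 0.13 ± 0.11, and the number of Map2k1 counts per Map2k2 count ran from 0.618 to 0.956 in cre+ and from 0.750 to 1.29 in cre-. Among the upstream kinases, Araf was the most even member across cre+ libraries, at 125 ± 0.811 CPM (SD) beside 133 ± 8.49 CPM in cre-. Braf was at 71.7 ± 8.92 and 79.0 ± 7.65 CPM and the scaffold Ksr1 at 58.8 ± 6.89 and 65.7 ± 8.84 CPM. The Ras genes Hras and Nras had log2 fold changes of 0.02 ± 0.15 and 0.18 ± 0.13. None of these differences passed a test.

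Among inhibitors the called differences were found in phosphatases and in the Sprouty and Spred family. Dusp3 encodes VHR, a dual-specificity phosphatase that acts on ERK and JNK. Dusp3 (chromosome 11, 101861969 to 101877839, minus strand, GRCm39) was measured at 258, 191 and 215 CPM in cre+ and at 154, 125, 151 and 159.6 CPM in cre- libraries. Every cre+ library exceeded every cre- library, with a log2 fold change of 0.58 ± 0.13 (adjusted p = 0.0963 with edgeR and 0.00499 with DESeq2). Of the merged exons of Dusp3, 13.3% overlap genes on the other strand, and since the sources used here do not say whether counting used strand, reads of these genes cannot be told apart there. Dusp7, a cytoplasmic phosphatase with a preference for ERK, had a log2 fold change of 0.35 ± 0.15 (adjusted p = 0.240 with edgeR and 0.166 with DESeq2). Dusp4, a nuclear phosphatase that is itself a transcriptional target of ERK, had a log2 fold change of -0.29 ± 0.14 (adjusted p = 0.297 with edgeR and 0.249 with DESeq2) and was not called. Within libraries, the ratio of Dusp3 to Dusp4 was 5.53, 4.23 and 3.58 in cre+ and 2.24, 1.93, 2.38 and 3.15 in cre-, again with cre- replicate 4 nearest to cre+. The ratio of Dusp3 to Dusp7 was 2.19 to 2.38 in cre+ and 1.82 to 2.14 in cre-, also without overlap but with a smaller gap.

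The window before the start of Dusp3, shown as the called inhibitor with the highest level and with the same marks as above (RefSeq, GRCm38.p6, 5′ to 3′ on the strand of the gene), held 3 GC boxes and 1 CCAAT box.
Dusp3, chr11:101984792-101985041, minus strand: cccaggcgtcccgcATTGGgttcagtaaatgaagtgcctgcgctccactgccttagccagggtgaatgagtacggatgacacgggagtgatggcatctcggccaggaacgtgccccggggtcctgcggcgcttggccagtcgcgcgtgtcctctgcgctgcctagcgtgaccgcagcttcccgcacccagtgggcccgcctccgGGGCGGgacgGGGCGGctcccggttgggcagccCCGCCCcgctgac
Its GC content was 70.0%, with 25 CpG, and it held no ETS motif and no cAMP response element.

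Sprouty and Spred proteins, which restrain Ras and Raf after receptor activation, were called in both directions. Spry4 was measured at 15.1, 11.7 and 11.9 CPM in cre+ and at 8.13, 7.26, 9.05 and 8.73 CPM in cre- libraries. It was higher in each cre+ library, with the largest positive log2 fold change of the 39 members at 0.64 ± 0.17 (adjusted p = 0.109 with edgeR and 0.00660 with DESeq2). Spred3, a family member with a narrow range of tissues, was measured at 16.0, 18.1 and 18.0 CPM in cre+ and at 24.9, 28.8, 21.8 and 21.7 CPM in cre- libraries. The groups did not overlap, and the log2 fold change was -0.48 ± 0.14 (adjusted p = 0.126 with edgeR and 0.0296 with DESeq2). Spred1 was at 55.8 ± 7.85 CPM in cre+ and 52.7 ± 4.62 CPM (SD) in cre-, and the ratio of Spred1 to Spred3 was 2.96 to 3.56 in cre+ and 1.65 to 2.58 in cre-, without overlap. Spred2 had a log2 fold change of 0.25 ± 0.12 and Spry1 one of 0.48 ± 0.23, both with overlap and without a call. Ratios of related members numbered 16, with the ratio of Shc1 to Shc2, chosen after its values were seen, left out. Of these, 3 did not overlap between genotypes and 13 did. Over single genes 18.7% did not overlap, and no such share was computed for ratios over all genes. Spry2 was at 25.3 ± 1.22 and 25.5 ± 6.37 CPM (SD). GTPase-activating proteins return Ras to its GDP-bound state. Their 3 members were not called, with log2 fold changes of 0.01 ± 0.12 for Rasa1, -0.13 ± 0.21 for Rasa2 and -0.11 ± 0.12 for Nf1, the neurofibromatosis gene.

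**Figure D3:**
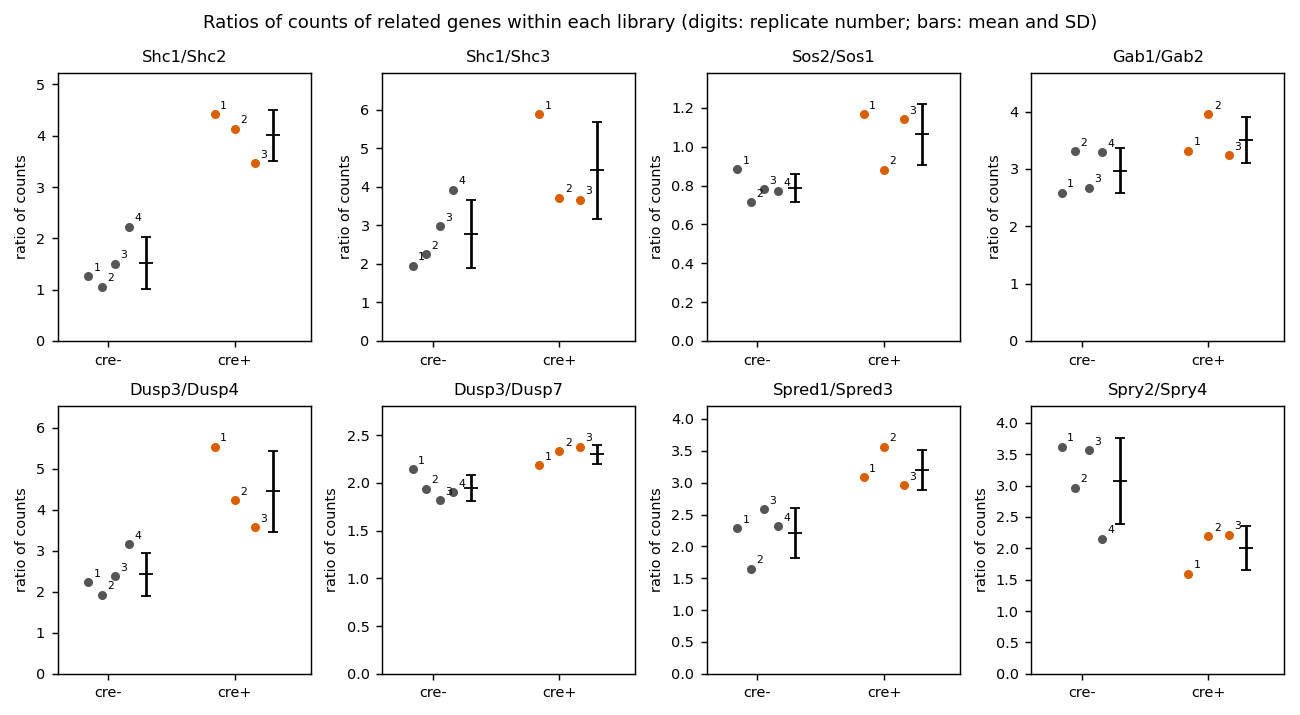
Ratio of the counts of related members (y axis, from 0) in each cre- (gray) and cre+ (orange) library, with replicate numbers and the mean and SD as bars. Ratios of Shc1 to Shc2, Dusp3 to Dusp4, Dusp3 to Dusp7 and Spred1 to Spred3 do not overlap between genotypes, and the other 4 ratios drawn do, these being 8 of the 17 ratios computed, of which 13 overlap.

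Effectors of ERK had no member called by DESeq2 or edgeR. Ribosomal S6 kinases carry the signal of ERK to translation and transcription, and Rps6ka3, which encodes RSK2, had levels that did not overlap, at 104, 84.1 and 85.0 CPM in cre+ and 74.7, 66.9, 64.3 and 77.6 CPM in cre- libraries. Its log2 fold change of 0.36 ± 0.11 did not pass (adjusted p = 0.149 with edgeR and 0.0669 with DESeq2), and it is named here after its values were seen. Rps6ka1 had a log2 fold change of 0.41 ± 0.18, Rps6ka2 one of -0.08 ± 0.15 and Rps6ka5, which encodes MSK1, one of -0.12 ± 0.15. The ETS factors Elk1 and Elk4, which are phosphorylated by ERK and bind serum response elements with SRF, had log2 fold changes of -0.11 ± 0.16 and 0.19 ± 0.25. Exons of Elk4 overlap genes on the other strand over 46.5% of their length and those of Map2k1 over 31.4%, so for these genes the counts are the least certain, and for Rasa1, Spry1 and Spry2 the overlap was 14.4%, 19.0% and 10.96%.

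**Figure D4:**
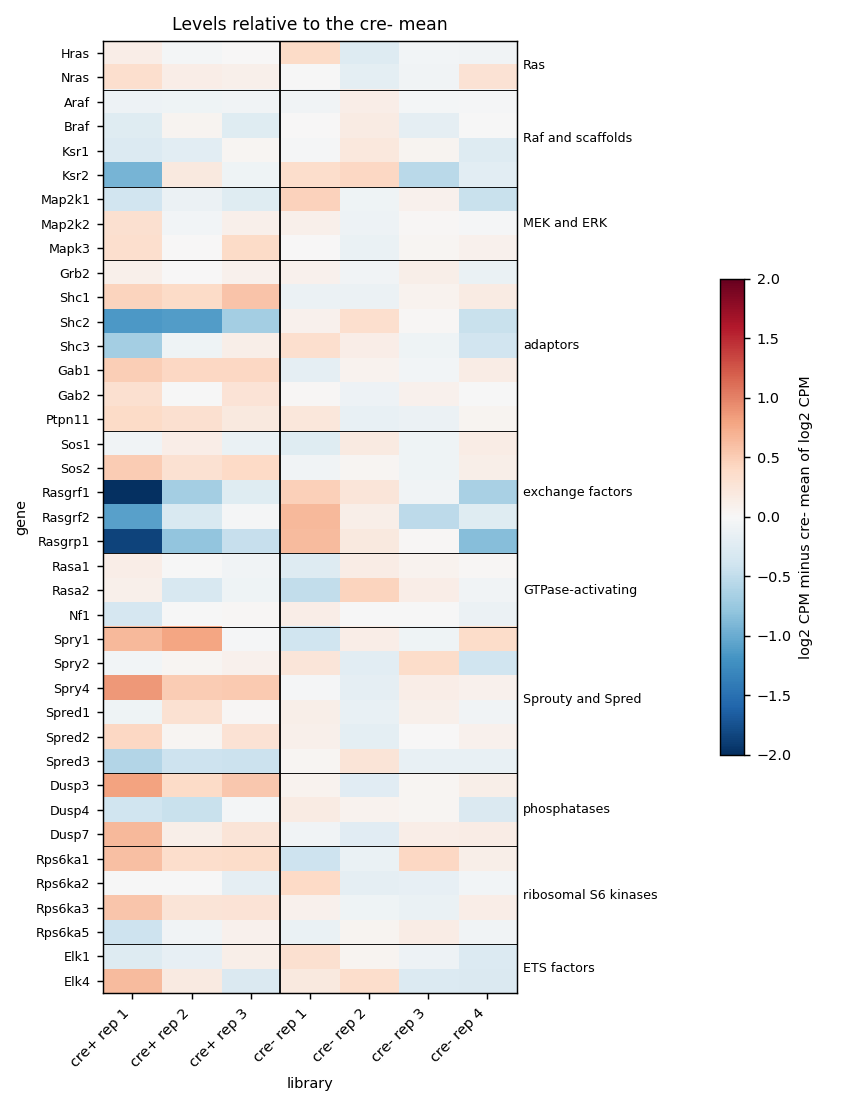
Level of each of the 39 members (rows, grouped by role) in each library (columns), as log2 CPM minus the mean of log2 CPM over cre- libraries (color scale from -2 to 2, values beyond it drawn in the end color). Shc2, Rasgrf1 and Rasgrp1 are lowest in cre+ replicate 1, where Dusp3 and Spry4 are highest.

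Activators and inhibitors were compared as the pathway's opposing arms. The median log2 fold change was -0.03 over activators (10 positive and 11 negative, from -1.02 to 0.47) and 0.05 over inhibitors (7 positive and 5 negative, from -0.48 to 0.64), the latter turning to -0.07 when libraries were scaled by their totals. For effectors it was 0.06 (3 positive and 3 negative), turning to -0.06 with that scaling, which lowered the median of all genes by 0.12. The mean of log2 CPM over the activators was 5.71, 5.90 and 6.001 in cre+ and 6.12, 6.03, 5.91 and 5.85 in cre- libraries, with overlap. Over the inhibitors it was 5.59, 5.49 and 5.51 in cre+ and 5.38, 5.40, 5.48 and 5.39 in cre- libraries, without overlap. The gap was narrow, at 5.495 in cre+ replicate 2 against 5.481 in cre- replicate 3, and rested on TMM scaling. Without the TMM factors of these libraries, 0.974 and 1.055, their order turns and the groups overlap. Activators minus inhibitors, a difference taken within each library, was 0.12, 0.41 and 0.49 in cre+ and 0.74, 0.62, 0.43 and 0.45 in cre- libraries. The groups overlapped, and the mean difference of -0.22 became 0.06 when the median over members replaced the mean and -0.11 without cre+ replicate 1. The direction of this difference thus rested on how members were averaged.

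**Figure D5:**
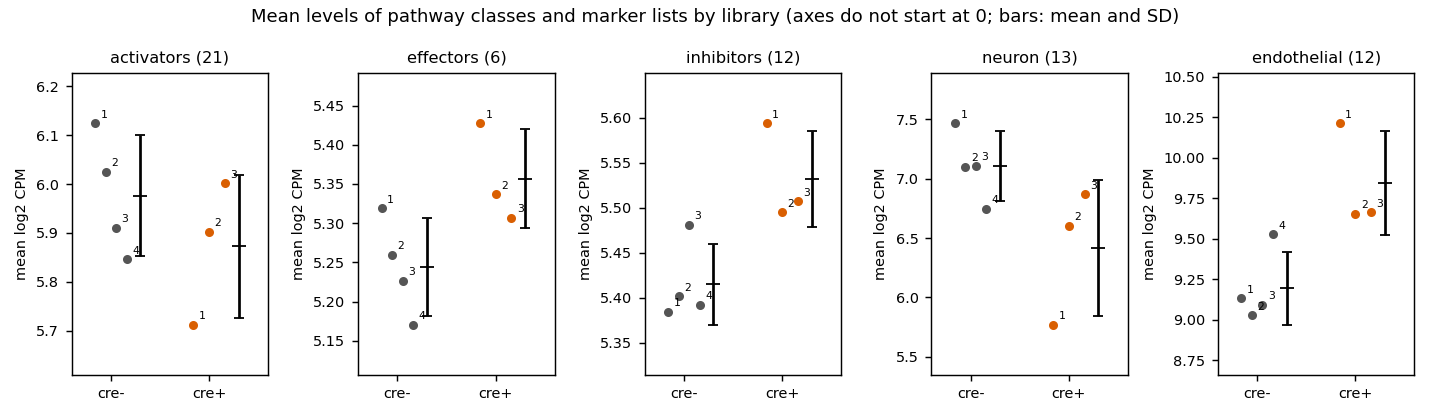
Mean of log2 CPM (y axes, not from 0) over activators, effectors, inhibitors, neuronal markers and endothelial markers (number of genes in the titles) in each cre- (gray) and cre+ (orange) library, with the mean and SD as bars. Endothelial markers do not overlap between genotypes, and inhibitors are narrowly apart with TMM scaling only, whereas activators overlap. The cre+ replicate 1 has the lowest activator and neuronal and the highest inhibitor and endothelial mean.

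Calls on members changed in fits with other terms or fewer libraries, as did calls over all genes. With a covariate for vessels (the mean over endothelial and mural marker genes), DESeq2 called 0 members, and of all genes it called 54 higher and 66 lower, beside 1095 and 895 without the covariate, and the adjusted p was 0.600 for Shc1, 0.625 for Gab1, 0.793 for Sos2, 0.748 for Dusp3, 0.645 for Spry4, 0.150 for Shc2 and 0.603 for Spred3. The covariate included Tagln, a mural marker at 0 CPM in cre+ replicates 1 and 2 and cre- replicates 3 and 4. Among cre- libraries, replicate 4 had the highest endothelial mean (9.53 log2 CPM) but the lowest mural mean (3.26 log2 CPM). The covariate thus did not follow endothelial levels alone. In the fit with this covariate the DESeq2 log2 fold change was 0.49 for Shc1, 0.45 for Gab1 and -1.33 for Shc2, beside 0.47, 0.45 and -0.99 without it. It was 0.61 for Spry4 and -0.58 for Spred3, beside 0.65 and -0.48, and 0.39 for Dusp3 and 0.26 for Sos2, beside 0.59 and 0.41. The sizes changed little or grew for 5 of the 7 members while their calls were lost. Endothelial levels in the covariate did not overlap between genotypes, so the fit cannot separate vessel content from genotype. The part of vessels in the lost calls and in the sizes was not tested. Without cre+ replicate 1, DESeq2 called only Shc1, Dusp3 and Shc2 of the members, and 591 of all genes higher and 512 lower. Without cre- replicate 4 it called all 7 and Rasgrp1, and 1163 of all genes higher and 1047 lower. Dusp3 and Shc2 were called in each of the 7 fits that left out a library. For 6 of the 7 called members (Spry4 was the exception) cre- replicate 4 was the cre- library nearest to the cre+ level, and it was also the cre- library with the highest endothelial level. With libraries scaled by their totals, DESeq2 called Spry4 and Dusp3 higher and Shc2, Rasgrp1 and Spred3 lower, and of all genes 525 higher and 1773 lower, so the calls over all genes moved toward lower too.

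Other genes of the pathway were taken as 58 further receptors, adaptors, Ras-family proteins, regulators and targets. With edgeR 0 were called, and 0 with limma-voom. At an unadjusted p below 0.05, edgeR counted 21, beside 20.0% of all genes. DESeq2 called 9 higher and 3 lower, beside the 5.08% and 4.15% of all genes. Dusp16, a phosphatase for JNK and p38, was at 39.9 ± 3.29 CPM (SD) in cre+ and 22.7 ± 4.43 CPM in cre-, with a log2 fold change of 0.81 ± 0.16 (adjusted p = 0.0939 with edgeR and 0.00106 with DESeq2). Pdgfrb, a growth factor receptor that also stands among the mural markers, had a log2 fold change of 0.73 ± 0.16, and Crk, an adaptor, one of 0.35 ± 0.09. Rasa3, a GTPase-activating protein, and the ETS factor Etv1 were called lower, with log2 fold changes of -0.52 ± 0.14 and -0.34 ± 0.10. The other 6 called higher, Fgfr3, Rras, Rap1b, Rasgrp3, Dusp1 and Elk3, had log2 fold changes of 0.43 to 1.01.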

How the data were processed

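Isolates enriched for neurons from whole mouse brain were profiled by poly(A) RNA sequencing in 3 cre+ and 4 cre- libraries. Endothelial markers summed to more CPM than neuronal markers in every library, so levels of members cannot be assigned to neurons alone. Per the submitters' processing notes and the methods of the study, fastp was used for trimming and FastQC for quality control, STAR for alignment to GRCm39, SAMtools for filtering of alignments and StringTie for counting, after which the authors ran DESeq2. The sources used here do not state versions, the annotation release or the use of strand. The deposited values are raw counts per gene and a normalized signal, which the authors made by dividing the counts by 1 factor per library (0.916 to 1.108). The files hold 46382 rows each, and 49 repeats of 46 symbols, all with identical counts, were dropped. Totals of 68213223 to 94376841 counts put at least 209 reads behind each member's value.

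The main test was edgeR 4.0.16's quasi-likelihood F-test in R 4.3.3 (TMM factors, filterByExpr, robust estimation, genotype as the only term), with p-values adjusted after Benjamini and Hochberg over 21542 genes and called below 0.05. DESeq2 1.42.0, which the study used, took 29539 genes with any count, and its calls were counted over the 21542 genes. limma 3.58.1 (voom), other scalings and filters, fits without each library, a replicate block and a vascular covariate were alternatives. CPM are edgeR values with TMM factors, and mean log2 CPM of lists used a prior count of 2. The tests were tried on simulated data. Fold changes are edgeR's unless DESeq2 is named. Replicates are littermate animals per the study.

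The members and lists were chosen with earlier results of these data known. Values of each library are given for members called by edgeR or DESeq2, for the 3 smallest edgeR p-values in each direction and for the highest and lowest level per kb of exon. Of the 58 other pathway genes the 3 smallest p-values in each direction are named, except for 1 gene that is not reported here. The column headers carry codes of unstated meaning, and a batch they might mark cannot be told apart from genotype.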

Additional observations from a re-analysis of the deposited data

Results flagged for a closer look

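Rps6ka2 was set apart in cre- replicate 1, at 55.8 CPM beside 37.7, 38.1 and 40.7 CPM in the other cre- libraries. The gap to the nearest library was 0.833 of the range of the group, just past Dixon's critical value for 4 samples. Of 69 groups of 4 examined this was the only one past it, and chance alone gives about 1 in 20. Without this library the log2 fold change of Rps6ka2 was 0.08 in place of -0.08.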

How the results depend on the processing

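The count of members called was 0 in all edgeR fits run, and over all genes it was 0 to 5 when a library was left out (5 without cre+ replicate 1). DESeq2 called 1990 genes, 7 members and 12 other pathway genes. The 7 called members kept their direction in all 16 alternatives, and 26 of the 39 members did. When a library was left out, DESeq2 called 2 to 6 members higher and 1 to 3 lower, and 2 to 12 other pathway genes higher and 1 to 4 lower, while over all genes it called 407 to 1163 higher and 348 to 1318 lower. With the vascular covariate these counts were 0, 0, 1 and 0, with library totals 2, 3, 4 and 5, and with cre+ replicate 1 and cre- replicate 4 both left out 3, 3, 12 and 1. With both of these libraries left out, 948 of all genes were called higher and 897 lower. The 3 DESeq2 fits with the vascular covariate, with library totals and with both libraries left out were added after seeing the data.

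Numbers of replicates did not pair the libraries: the residuals of same-numbered libraries correlated at -0.0267, -0.00357 and 0.0876. With a replicate block, DESeq2 called 2 members higher and 3 lower, and 10 other pathway genes higher and 1 lower. Over all genes this fit called 765 higher and 778 lower. Rasgrf1 and Rasgrp1 were among the members called lower. Only cre- had a replicate 4, so with this block that library did not inform the genotype difference. The cause of the changes in calls was not tested.

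Class medians moved near 0. For activators the median turned to 0.015 with the replicate block and to 0.029 without cre+ replicate 3. For effectors the median was -0.057 with library totals, -0.051 with the vascular covariate and -0.018 to 0.19 with a library left out. For inhibitors it was -0.071, 0.12 and 0.0060 to 0.12. Activators minus inhibitors was 0.055 with the median over members and -0.30 to -0.11 with a library left out.

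Direction turned in some alternative for 13 members, none of them called. With library totals, the log2 fold change was -0.095 for Hras, -0.056 for Grb2, -0.11 for Rasa1 and -0.033 for Spred1. With the vascular covariate it was -0.23 for Hras, -0.082 for Map2k2, 0.18 for Sos1, 0.13 for Spry2, 0.048 for Rps6ka5 and -0.15 for Elk4. Rasa1 was at -0.0075 with upper-quartile factors and at -0.0038 with a mean CPM of at least 1, Spry2 at 4.63e-05 with DESeq2, 0.026 with limma-voom and 0.00088 with RLE factors, and Sos1 at 0.027 with the replicate block. With a library left out, the ranges were -0.23 to 0.0087 for Elk1, -0.063 to 0.39 for Elk4, -0.067 to 0.17 for Hras, -0.50 to 0.0046 for Ksr2, -0.059 to 0.065 for Rasa1, -0.26 to 0.036 for Rasa2, -0.14 to 0.076 for Rps6ka2, -0.23 to 0.0033 for Rps6ka5, -0.11 to 0.033 for Sos1, -0.037 to 0.16 for Spred1 and -0.13 to 0.12 for Spry2.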

Other observations

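Members were at their extremes most often in cre+ replicate 1 and cre- replicate 2. The cre+ replicate 1 was the lowest of all 7 libraries in 12 of the 39 members (30.8%, beside 25.7% of all tested genes) and the highest in 13 (33.3%, beside 19.2%). The genes at their lowest there included Shc2, Rasgrf1, Rasgrf2, Rasgrp1 and Nf1, and those at their highest included Gab1, Sos2, Spry4, Dusp3 and Rps6ka3. The cre- replicate 2 was also the lowest in 12 members (30.8%, beside 17.1%), Dusp3, Spry4 and Shc1 among them, and the highest in 9 (23.1%, beside 19.6%), Shc2 and Spred3 among them. The cre- replicate 4 was the highest library in 0 members, beside 8.23% of all tested genes.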
